A study of Mus musculus with 12 samples.

Results

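The flavin monooxygenase genes Fmo1, Fmo2, Fmo4 and Fmo5 were followed through the livers of mice that carried or lacked the aryl hydrocarbon receptor (AhR) in hepatocytes and that drank a control or an ethanol diet. The 4 genes were taken by symbol from the 24532 genes of the deposited table, and all 4 passed the filter on low counts with the 14038 genes that were tested. Poly-A RNA of 12 livers from male C57BL/6 mice was sequenced, 3 livers in each of 4 groups. Mice of both genotypes were homozygous for a floxed Ahr allele (Ahr fl/fl): Ahr HKO mice also carried Alb-Cre, whose albumin promoter is active in hepatocytes, and WT mice were their littermates without Cre. From an age of 10 to 12 weeks, mice received a Lieber-DeCarli liquid diet with 5% ethanol by volume (EtOH) or an isocaloric control diet (con) for 5 weeks. The 3 livers of a group were picked at random from a larger number of animals, and the labels number them as separate livers.

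Flavin monooxygenases are membrane enzymes of the endoplasmic reticulum that use FAD, NADPH and oxygen to add an oxygen atom to nitrogen, sulfur and other soft nucleophilic atoms of drugs, dietary amines and some endogenous metabolites. They share substrates with the cytochromes P450, but NADPH reduces their flavin directly, without a separate reductase. In the mouse liver, levels of the family are known to differ between the sexes.

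The 4 members are separate genes with related coding sequences, and how alike these are bears on how surely a read can be given to one of them. On GRCm38 (mm10, RefSeq annotation), Fmo4 (gene ID 226564, chr1:162793188-162816072), Fmo1 (gene ID 14261, chr1:162829561-162866610) and Fmo2 (gene ID 55990, chr1:162874317-162898758) lay next to one another on chromosome 1, and Fmo5 (gene ID 14263, chr3:97609938-97655287) lay alone on chromosome 3. The coding sequences of the GENCODE M21 transcripts held 1596 bases in Fmo1, 1605 in Fmo2, 1680 in Fmo4 and 1599 in Fmo5. Each transcript had 9 exons, untranslated ones included. The first 60 coding bases of each are shown because they carry the part of the enzyme that all 4 share: the capitals mark the 6 codons of the glycine-rich GxGxxG stretch that binds FAD.
Fmo1: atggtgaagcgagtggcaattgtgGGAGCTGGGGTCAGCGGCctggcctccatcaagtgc
Fmo2: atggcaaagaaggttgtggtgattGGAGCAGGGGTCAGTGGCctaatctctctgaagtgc
Fmo4: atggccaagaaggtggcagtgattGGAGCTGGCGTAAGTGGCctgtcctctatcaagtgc
Fmo5: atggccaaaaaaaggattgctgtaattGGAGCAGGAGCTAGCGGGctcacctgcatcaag
The stretch began at codon 9 in Fmo1, Fmo2 and Fmo4 and at codon 10 in Fmo5. Over the whole coding sequence, identity in the 6 pairs of members ran from 62.8% (Fmo1 and Fmo5) to 67.2% (Fmo2 and Fmo4), and the longest run of identical bases in a pair was 12 to 24. These runs are shorter than a full read as sequenced.

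The libraries held 46306518 to 74336255 counted reads, of which Fmo5 took 22255 to 92465, Fmo1 4082 to 20206, Fmo2 230 to 2655 and Fmo4 56 to 395 per liver. Gene-level reads did not check the deletion, because they do not separate the floxed exon 2 from the rest of the transcript: Ahr was higher, not lower, in the Ahr HKO livers on the control diet (56.7 ± 13.4 against 18.3 ± 1.79 CPM, SD, n = 3; log2 fold change 1.63, SE 0.19, adjusted p = 0.0016). Cyp1a2, a hepatocyte target of AhR, was lower there (154 ± 91.1 against 490 ± 114 CPM; −1.67, SE 0.40, adjusted p = 0.0197), a call lost without WT control liver 1 (0.0607) or Ahr HKO control liver 2 (0.0600). On ethanol Cyp1a2 was 657 ± 27.6 CPM in Ahr HKO and 1088 ± 112 CPM in WT livers. Of the 10 tested genes of the AhR complex and its targets, Cyp1a2 was the 1 called lower in Ahr HKO control livers, while 2 were called higher, Ahr itself and Cyp1a1 (0.723 ± 0.244 against 0.256 ± 0.0809 CPM). The median log2 fold change of the list was 0.33, and 19.9% of all tested genes were called in this comparison. The 4 Y-linked genes looked at held 383 to 3279 reads in every library and Xist 0 to 7, as the label male requires. The summed level of 8 hepatocyte markers was 85936 to 138665 CPM in all 12 livers, and no marker of that list was at 0.

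A few livers stood apart from the other livers of their own group in Fmo genes, and the values below are therefore also given without them. In WT ethanol liver 2, Fmo2 was 3.13 times the lowest of its group and highest of all livers. Ahr HKO control liver 3 had the highest Fmo1 and Fmo2 of its group, and its summed hepatocyte markers were 138665 CPM against 92055 and 89823 CPM in the other livers of that group. Ahr HKO ethanol liver 1 held the highest Fmo2 and Fmo4 of its group.

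Per length, Fmo5 and Fmo1 made up nearly all flavin monooxygenase mRNA in every liver. FPKM, the reads per kilobase of transcript scaled to library size as the authors computed them, allows levels of different genes to be set side by side. WT control livers held 94.4 ± 22.8 FPKM of Fmo5 (SD, n = 3 here and for each group below), 44.4 ± 4.47 of Fmo1, 1.98 ± 0.241 of Fmo4 and 1.502 ± 0.0892 of Fmo2, and the ranges of neighbours in this order did not overlap. By level, Fmo5 ranked 681 and Fmo1 1218 among the 15927 genes with an FPKM above 0 in that group, against 8665 for Fmo4 and 9380 for Fmo2.

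Fmo5 stayed above Fmo1 in mean level in every group, while the order of Fmo2 and Fmo4 changed with diet and genotype. In WT ethanol livers Fmo5 (136 ± 30.4 FPKM) and Fmo1 (108 ± 19.8 FPKM) overlapped in range, and Fmo2 (7.61 ± 5.87 FPKM) stood above Fmo4 (2.78 ± 0.331 FPKM) with no overlap. Ahr HKO control livers kept Fmo5 (126 ± 34.6 FPKM) above Fmo1 (36.3 ± 12.5 FPKM), and Fmo2 (1.84 ± 0.935 FPKM) above Fmo4 (0.742 ± 0.288 FPKM), each with no overlap. In the Ahr HKO ethanol livers Fmo5 reached 229 ± 18.6 FPKM and rank 326 of 15982 genes, Fmo1 95.7 ± 14.2 FPKM, and Fmo2 (2.99 ± 1.02 FPKM) and Fmo4 (1.67 ± 1.05 FPKM) overlapped.

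The share of Fmo5 in the summed FPKM of the 4 members was 65.9% ± 5.44 in WT control livers, 53.4% ± 0.731 in WT ethanol livers, 76.2% ± 5.61 in Ahr HKO control livers and 69.6% ± 4.18 in Ahr HKO ethanol livers. That of Fmo1 was 31.7% ± 5.27, 42.7% ± 1.56, 22.2% ± 5.08 and 29.0% ± 3.71 in the same order. The ratio of Fmo5 to Fmo1 was 1.19 to 1.303 in the WT ethanol livers, below every other liver, where it lay between 1.78 and 5.08. The summed FPKM was 142 ± 23.1, 255 ± 55.8, 165 ± 42.7 and 329.7 ± 20.6, and in either genotype no ethanol liver was below a control liver.

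**Figure D1:**
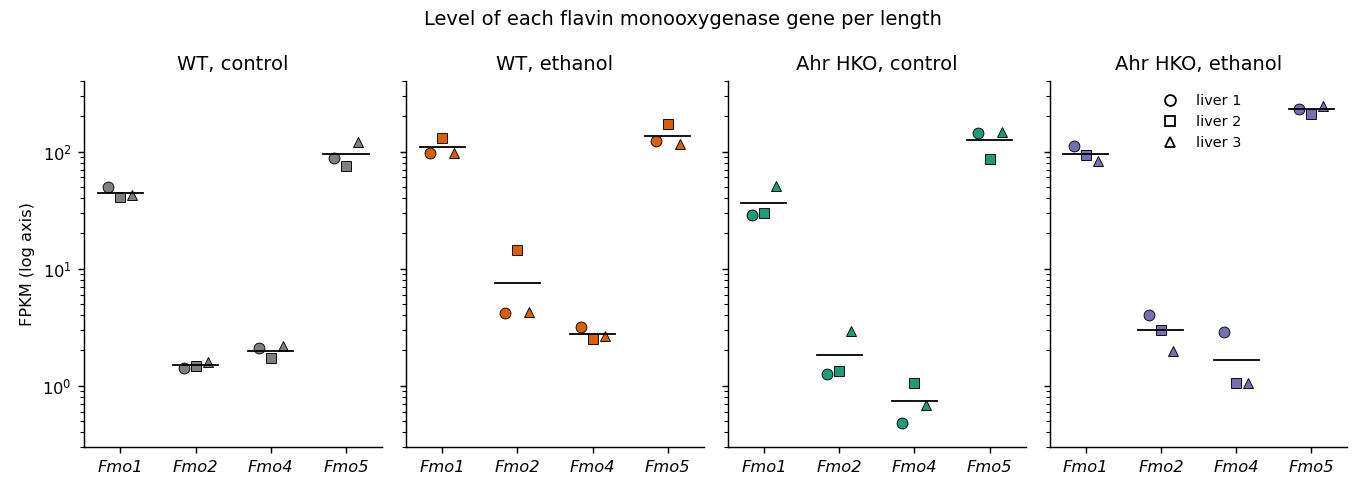
FPKM of Fmo1, Fmo2, Fmo4 and Fmo5 (log axis) in the 12 livers, 1 panel per group; each symbol is 1 liver and each line the mean of 3 livers. Fmo5 and Fmo1 lie far above Fmo2 and Fmo4 in every group, Fmo5 and Fmo1 overlap in WT ethanol livers, and Fmo4 lies above Fmo2 in WT control livers alone.

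For differences between groups, counts scaled to a common library size (CPM, on library sizes scaled by TMM) were used, with edgeR's quasi-likelihood test on the raw counts. A gene was called when its Benjamini-Hochberg adjusted p over the 14038 tested genes was under 0.05 and its fold change above 1.5. These comparisons share groups: each diet effect and each genotype effect uses a group that another comparison also uses, so they are not independent of one another. In whole livers, fewer cells of a type and less RNA per cell cannot be told apart.

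**Figure D2:**
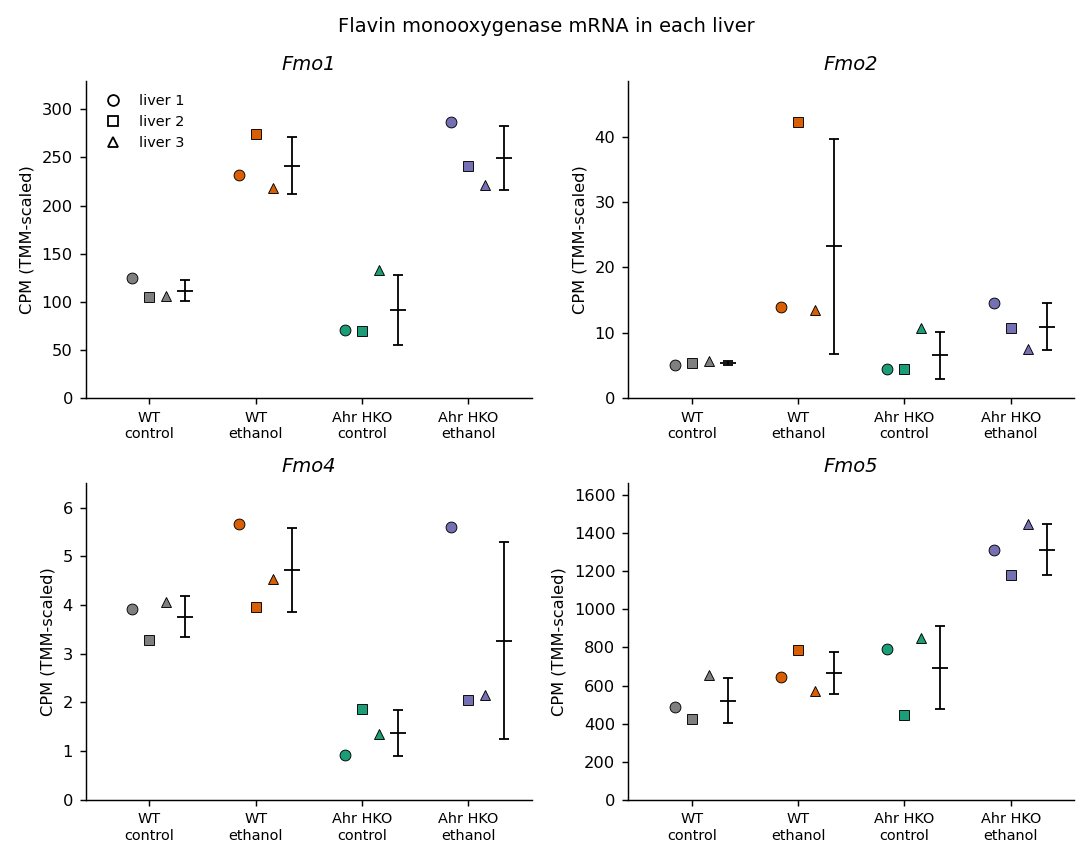
CPM on TMM-scaled library sizes (linear axis from 0) of each member in the 12 livers by group; symbols stand for livers 1 to 3, and the bar beside them is the mean ± SD of 3 livers. Fmo1 is higher in all 6 ethanol livers than in all 6 control livers, WT ethanol liver 2 stands out in Fmo2 (42.2 CPM), and Fmo5 is highest in the 3 Ahr HKO ethanol livers.

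Fmo1 rose on the ethanol diet in both genotypes. It is the broad-range flavin monooxygenase of mouse liver and kidney, and also the enzyme for which oxidation of hypotaurine to taurine has been described. The WT control livers held 124, 105 and 106 CPM and the WT ethanol livers 232, 275 and 218 CPM. The Ahr HKO control livers held 71.1, 69.6 and 133 CPM and the Ahr HKO ethanol livers 286, 242 and 221 CPM. In neither genotype did the diet groups overlap, and the lowest of the 6 ethanol livers was above the highest of the 6 control livers.

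With ethanol, Fmo1 was 2.18 times its control level in WT livers (log2 fold change 1.13, SE 0.13, 95% interval 0.82 to 1.43, adjusted p = 0.0051) and 2.73 times in Ahr HKO livers (1.45, SE 0.28, 0.80 to 2.097, adjusted p = 0.0096). Both calls were kept when any 1 of the 6 livers of a comparison was left out, with log2 fold changes of 1.01 to 1.21 in WT and 1.28 to 1.84 in Ahr HKO livers. Between genotypes Fmo1 was not called: the difference, Ahr HKO minus WT, was −0.29 (95% interval −0.89 to 0.32, adjusted p = 0.443) on the control diet and 0.05 (−0.29 to 0.38, adjusted p = 0.877) with ethanol. On the control diet this rested on Ahr HKO control liver 3, the liver at 133 CPM: without it, Fmo1 was lower in Ahr HKO livers (−0.67, adjusted p = 0.0104). The sign of the small difference on the ethanol diet turned with the scaling of the libraries, from 0.05 to −0.00183 under upper-quartile scaling and to between −0.18 and −0.074 on the FPKM values.

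Fmo5 rose on the ethanol diet in Ahr HKO livers. Fmo5 has little of the classical activity of the family and instead acts as a Baeyer-Villiger monooxygenase, which inserts oxygen next to a carbonyl group. The WT control livers held 486, 422 and 655 CPM and the WT ethanol livers 645, 786 and 569 CPM, 2 ranges that overlapped. The Ahr HKO control livers held 791, 444 and 848 CPM and the Ahr HKO ethanol livers 1311, 1179 and 1448 CPM. Each Ahr HKO ethanol liver was above each of the other 9 livers.

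In Ahr HKO livers Fmo5 was 1.89 times higher with ethanol (log2 fold change 0.92, SE 0.26, 95% interval 0.31 to 1.52, adjusted p = 0.0339). The call was lost without Ahr HKO control liver 1 (adjusted p = 0.0594) and without Ahr HKO ethanol liver 1 (0.0757), liver 2 (0.0607) or liver 3 (0.0927), while the log2 fold change stayed between 0.67 and 1.09. Among ethanol-fed mice, Fmo5 was 1.97 times higher in Ahr HKO than in WT livers (0.98, SE 0.16, 0.61 to 1.35, adjusted p = 0.0438), a call lost without any 1 of the 6 livers (log2 fold change 0.87 to 1.14, adjusted p 0.0621 to 0.180). It was also lost under upper-quartile scaling (adjusted p = 0.0551), although the Ahr HKO and WT values of the ethanol-fed mice lay apart. The diet difference in WT livers (0.37, −0.09 to 0.84, adjusted p = 0.284) and the genotype difference on the control diet (0.42, −0.22 to 1.06, adjusted p = 0.290) did not pass the test, and their intervals reach increases larger than 1.5-fold.

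Fmo2 rose on the ethanol diet in WT livers, with a wide spread. Fmo2 is best known as the main flavin monooxygenase of the mammalian lung. The WT control livers held 5.02, 5.32 and 5.62 CPM and the WT ethanol livers 14.0, 42.2 and 13.5 CPM. The Ahr HKO control livers held 4.41, 4.44 and 10.7 CPM and the Ahr HKO ethanol livers 14.5, 10.8 and 7.44 CPM. The diet groups did not overlap in WT livers and overlapped in Ahr HKO livers, where control liver 3 was above ethanol liver 3.

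In WT livers Fmo2 was 4.44 times higher with ethanol (log2 fold change 2.15, SE 0.46, 95% interval 1.07 to 3.23, adjusted p = 0.0323). Without WT ethanol liver 2 the difference was smaller and still called (1.37, adjusted p = 0.0047). The call was lost when WT control liver 1 (0.113), liver 2 (0.109) or liver 3 (0.0987) was left out, with log2 fold changes of 2.11 to 2.19. In Ahr HKO livers the difference of 0.75 (SE 0.41, −0.21 to 1.70, adjusted p = 0.198) was not called, but without Ahr HKO control liver 3 it was 1.32 and called (adjusted p = 0.0213).

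Fmo2 did not pass the test between genotypes on either diet. The difference, Ahr HKO minus WT, was 0.30 on the control diet (adjusted p = 0.565), which turned to −0.27 (adjusted p = 0.218) without Ahr HKO control liver 3, and −1.10 on the ethanol diet (−2.24 to 0.05, adjusted p = 0.252).

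Fmo4 fell in Ahr HKO livers on the control diet. Fmo4 is a member of low abundance whose substrates are little known. The WT control livers held 3.93, 3.28 and 4.07 CPM and the Ahr HKO control livers 0.915, 1.86 and 1.35 CPM. On the ethanol diet the WT livers held 5.66, 3.96 and 4.54 CPM and the Ahr HKO livers 5.60, 2.05 and 2.14 CPM. The genotypes lay apart on the control diet and overlapped on the ethanol diet through Ahr HKO ethanol liver 1.

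On the control diet the level in Ahr HKO livers was 0.367 of that in WT livers (log2 fold change −1.45, SE 0.28, 95% interval −2.09 to −0.80, adjusted p = 0.0088), and the call was kept without any 1 of the 6 livers (−1.73 to −1.22). With ethanol, Ahr HKO livers held more Fmo4 than on the control diet with no overlap, but the difference of 1.26 (SE 0.46, 0.18 to 2.34, adjusted p = 0.0761) was not called. Without Ahr HKO ethanol liver 1 it was 0.61 (adjusted p = 0.229), and with DESeq2 or all 12 libraries in 1 fit it was called (adjusted p = 0.0240 and 0.0255). The other 2 differences, ethanol in WT livers (0.34, −0.09 to 0.76, adjusted p = 0.282) and Ahr HKO minus WT on ethanol (−0.53, adjusted p = 0.484; −1.16 without Ahr HKO ethanol liver 1), were not called.

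Counted over the members, ethanol in WT livers gave 2 of 4 called, both higher, where 6.76% of all tested genes were called and 3.36% were called higher. Ethanol in Ahr HKO livers gave 2 of 4, both higher, against 22.0% of all genes and 10.3% called higher. Ahr HKO against WT on the control diet gave 1 of 4, lower, against 19.9% and 10.1% called lower, and on the ethanol diet 1 of 4, higher, against 1.06% and 0.684% called higher. Groups that did not overlap in CPM were seen for 2, 3, 1 and 1 of the 4 members in these comparisons, where 32.9%, 49.8%, 47.3% and 27.9% of all tested genes had such groups.

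**Figure D3:**
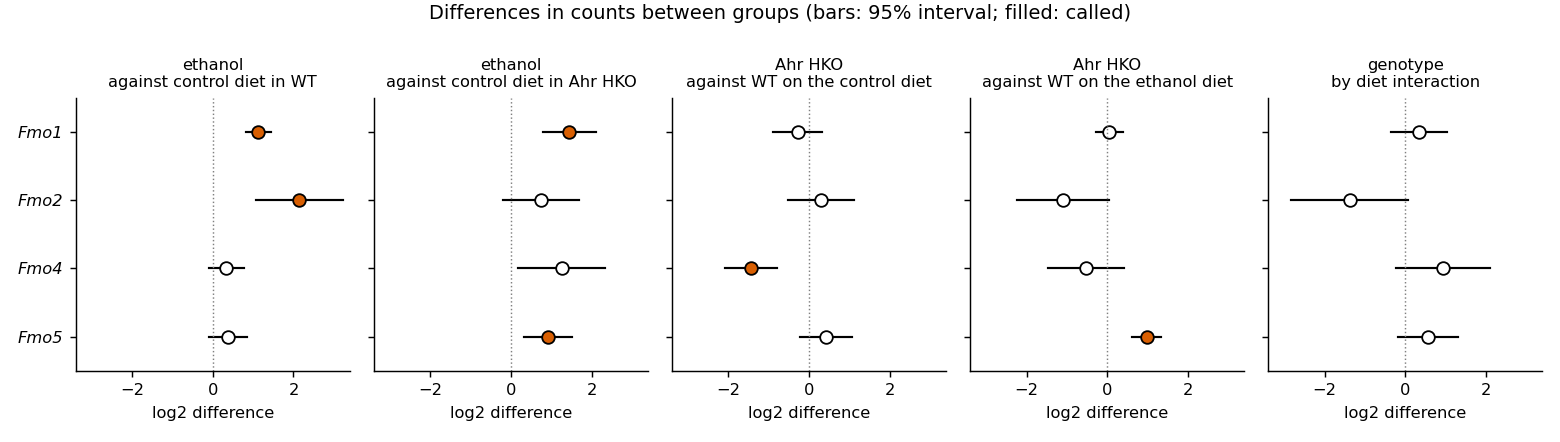
Log2 differences in counts (linear axis) of the 4 members in the 4 comparisons and in the genotype by diet interaction; points are edgeR estimates, bars their 95% intervals, and filled points were called. Fmo1 is filled in both diet comparisons, Fmo2 in WT livers, Fmo5 in Ahr HKO livers and between genotypes on ethanol, Fmo4 between genotypes on the control diet, and no point is filled for the interaction.

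Whether the effect of the diet differed between the genotypes was tested by the interaction term over all 12 livers, the effect in Ahr HKO minus that in WT. None of the 4 members was called by edgeR, where 22.3% of all tested genes were, 0 had an unadjusted p under 0.05, and DESeq2 and limma also called 0. The term was 0.34 for Fmo1 (95% interval −0.35 to 1.03, adjusted p = 0.474), −1.38 for Fmo2 (−2.83 to 0.07, 0.157), 0.93 for Fmo4 (−0.24 to 2.09, 0.231) and 0.56 for Fmo5 (−0.18 to 1.31, 0.254). A larger rise of Fmo1 in Ahr HKO livers passed the test without Ahr HKO control liver 3 (0.71, adjusted p = 0.0271). So the diet effects that were called in 1 genotype alone, on Fmo2 and Fmo5, were not shown to differ between genotypes.

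Fmo6 and Fmo9, on chromosome 1, had 0 reads in each of the 12 livers, which allows at most 0.0425 to 0.0676 CPM at the limit of 3 reads (counting error only).

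Fmo2 was read beside genes that differ between female and male mouse liver. The summed CPM of 12 female-biased genes, such as Cyp2b9, Sult2a1 and A1bg, was 57.7, 67.8 and 6.05 in WT control, 1688, 2244 and 1480 in WT ethanol, 168, 46.2 and 813 in Ahr HKO control, and 1101, 463 and 255 in Ahr HKO ethanol livers. Within each of the 3 groups other than WT control, the liver with the highest sum was the one with the highest Fmo2. In WT control, liver 3 had the highest Fmo2 (5.62 CPM) and the lowest sum (6.05).

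With ethanol, 5 of the 8 female-biased genes that could be tested rose in WT livers and 2 rose in Ahr HKO livers. The sum of 12 male-biased genes, such as Cyp4a12a, Hsd3b5 and Mup20, was 21610 to 23253 CPM in WT control, 2576 to 3575 in WT ethanol, 10678 to 15534 in Ahr HKO control and 4847 to 15029 in Ahr HKO ethanol livers, with liver 1 at 4847. Of these 12, 9 fell with ethanol in WT livers, and the median log2 fold change was −3.65 beside 0.03 over all genes. In Ahr HKO livers 2 rose and 1 fell. Of all tested genes, 6.76% were called with ethanol in WT and 22.0% in Ahr HKO livers. The part of these shifts in the Fmo2 values was not tested.

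**Figure D4:**
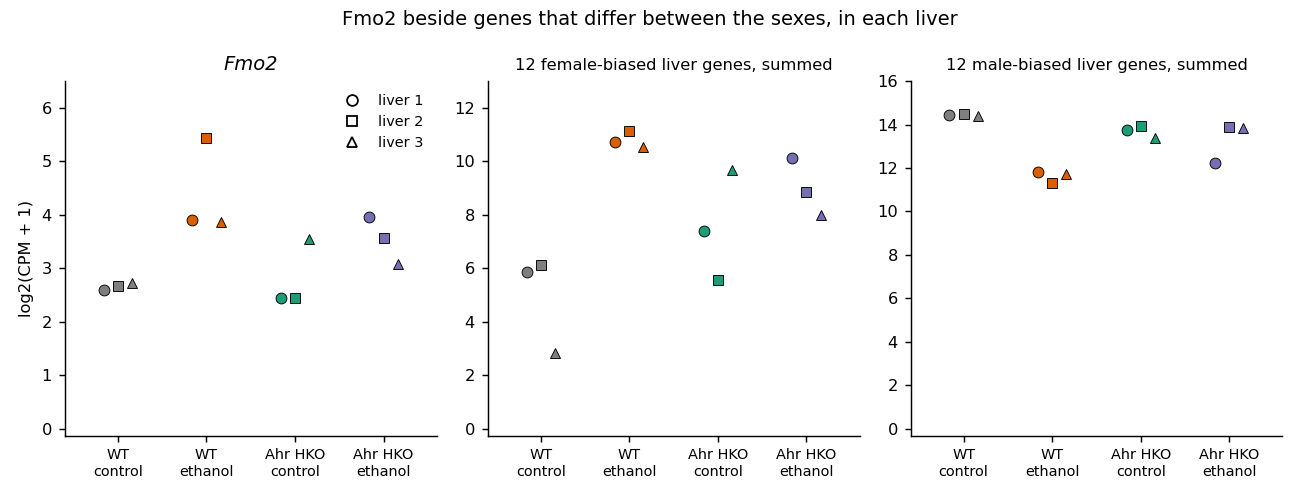
log2(CPM + 1) of Fmo2 and the summed CPM of 12 female-biased and 12 male-biased liver genes in the 12 livers by group; each symbol is 1 liver. WT ethanol liver 2, Ahr HKO control liver 3 and Ahr HKO ethanol liver 1 are the highest of their groups in Fmo2 and in the female-biased sum (2244, 813 and 1101 CPM). WT control liver 3 is the highest of its group in Fmo2 and the lowest in that sum.

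Genes that supply the cofactors of the enzymes were taken as lists of known genes. Of 8 genes of NADPH supply, 3 rose with ethanol in WT livers, among them malic enzyme Me1 (log2 fold change 1.54, SE 0.21, adjusted p = 0.0089; 15 of 15 alternative settings), and 1 rose in Ahr HKO livers. Nnt, the mitochondrial transhydrogenase, was the 1 gene of this list called between genotypes on the control diet (0.90, SE 0.17, adjusted p = 0.0078). Nnt was also called higher in WT livers with ethanol, a call kept in 9 of 15 alternative settings. On the ethanol diet 1 gene of the list was called higher in Ahr HKO than in WT livers, where 1.06% of all tested genes were called. By DESeq2 the Nnt difference there was 0.74 (adjusted p = 4.6e-06), and limma called 0 of the list. The median of the list was 0.23 in WT and 0.34 in Ahr HKO livers with ethanol, beside 0.03 and −0.02 over all genes. Of all tested genes, 6.76% were called with ethanol in WT livers, 22.0% with ethanol in Ahr HKO livers and 19.9% between genotypes on the control diet.

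None of the 5 genes of FAD and riboflavin supply was called by edgeR for ethanol in WT livers or in Ahr HKO livers, where 2 and 1 had an unadjusted p under 0.05 and DESeq2 called 0 and 0. In WT livers limma called 1, Rfk, on log2(FPKM + 1) (0.63, adjusted p = 0.0102) and on log2(FPKM + 0.1) (0.66, adjusted p = 0.0089). With quantile normalization limma called 0 there. The effect of ethanol on Rfk, riboflavin kinase, differed between genotypes by the interaction test (−0.83, SE 0.14, adjusted p = 0.0031). Of 5 genes listed as microsomal electron transfer, which serves the cytochromes P450, 1 rose with ethanol in WT livers, the cytochrome b5 reductase Cyb5r1. In Ahr HKO livers 1 rose, Cyb5b (cytochrome b5 type B), which is the form of the outer mitochondrial membrane, not the microsomal one. The 2 calls were kept in 7 and 9 of 15 alternative settings. In the same comparisons 6.76% (WT) and 22.0% (Ahr HKO) of all tested genes were called.

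Around hypotaurine, the substrate named for Fmo1, 7 of 8 genes could be tested, since Gadl1 was at 0 reads. In WT livers 0 of the 7 were called with ethanol by edgeR, where 1 had an unadjusted p under 0.05 and DESeq2 called 0. Of all tested genes 6.76% were called there. Csad, the decarboxylase that makes hypotaurine, was lower in Ahr HKO than in WT livers on the control diet (−1.78, SE 0.37, adjusted p = 0.0112) and rose with ethanol in Ahr HKO livers (1.295, SE 0.28, adjusted p = 0.0140). Both Csad calls were kept in 15 of 15 alternative settings, including each liver left out. In the same comparisons Slc6a6, the taurine transporter, was lower in Ahr HKO control livers, and Cth, which makes cysteine, rose with ethanol.

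Of 14 transcription factors with a known link to liver Fmo genes or to sex-biased liver genes, 2 rose with ethanol in WT livers, and 1 rose and 2 fell in Ahr HKO livers. The shares of all tested genes called with ethanol were 6.76% in WT and 22.0% in Ahr HKO livers. Nr1i3, the constitutive androstane receptor, rose with ethanol in both genotypes: 0.74 (SE 0.099, adjusted p = 0.0080) in WT and 1.03 (SE 0.20, adjusted p = 0.0108) in Ahr HKO livers, each called in 15 of 15 alternative settings. Hnf4a, a hepatocyte master regulator, was higher in Ahr HKO than in WT livers on the control diet (0.97, SE 0.14, adjusted p = 0.0033; 15 of 15 alternative settings). Between genotypes on ethanol, Bcl6 was higher and Cux2 lower in Ahr HKO livers. Both factors are part of the growth hormone control of sex-biased liver genes, and both also stand in the sex-biased lists above. The part of any of the listed factors in the Fmo values was not tested.

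The genes whose level moved most like that of a member over the 12 livers were named by the root-mean-square difference of log2 CPM, each gene centred on its own mean. For Fmo1 they were the glutathione transferase Gsta3 (0.16), alcohol dehydrogenase Adh1 (0.19) and mitochondrial isocitrate dehydrogenase Idh2 (0.20), against a median of 0.80 over all tested genes. For Fmo2 they were Acot4 (0.34), the transporter gene Abcb1a (0.41) and the monocarboxylate transporter gene Slc16a7 (0.44), against 0.99. For Fmo4 they were Fgfrl1 (0.28), Apol7a (0.29) and Tenm3 (0.30), against 0.86.

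For Fmo5 they included Rhobtb1 (0.28) and the transcription factor gene Klf13 (0.28), against 0.68. Among the members, Fmo1 was the 14th closest gene to Fmo2 (0.53), Fmo2 was the 623rd closest to Fmo1, and all other pairs ranked between 1401 and 12112. All these values share the same 12 libraries and describe likeness alone.

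The 2 nearest tested genes on each side of the Fmo genes, Fmo6 and Fmo9 included, were 12 genes. With ethanol edgeR called 0 of the 12 in WT livers, where 5 had an unadjusted p under 0.05, DESeq2 called 1 and 6.76% of all genes were called. In Ahr HKO livers 1 rose and 2 fell with ethanol, where 22.0% of all genes were called. Between genotypes 1 was higher and 1 lower on the control diet (19.9% of all genes called), and 0 were called with ethanol (1.06%), where 2 had an unadjusted p under 0.05 and DESeq2 called 0. The longer stretch of chromosome 1 from Fmo4 to the silent Fmo9 (chr1:166662055-166681845) held 30 other tested genes, most of them not beside a member. Of these, 3 rose and 2 fell with ethanol in WT livers, 3 rose and 3 fell with ethanol in Ahr HKO livers, and 3 were higher and 6 lower in Ahr HKO than in WT livers on the control diet. The shares of all genes called were 6.76%, 22.0% and 19.9% in the same order. Between genotypes with ethanol, edgeR called 0 of the 30, where 6 had an unadjusted p under 0.05 and DESeq2 called 2. Beside Fmo5 on chromosome 3 lies Acp6, a lysophosphatidic acid phosphatase. Acp6 held 29.1, 27.0, 14.7 and 29.2 CPM as group means (WT control, WT ethanol, Ahr HKO control, Ahr HKO ethanol). It was lower in Ahr HKO livers on the control diet (−0.98, SE 0.11, adjusted p = 0.0015), whereas the Fmo5 difference there was 0.42 and not called.

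Windows of 300 bases around annotated starts, 250 before and 50 after, from a table of RefSeq starts (GRCm38.p6) were matched to Fmo2, Fmo4 and Fmo5, 4 windows in all, and no window was matched to Fmo1. Of the 250 bases before the start, 104 in Fmo4, 215 in Fmo5, and 0 and 227 in the windows of Fmo2 lay in exons of the same gene. The windows of Fmo4 and Fmo5 lay within the gene bounds given above, so sequence before those bounds was not searched. On both strands, GCGTG, the core of the AhR response element, was in 0 of the 4 windows, and 32.4% of the 32851 windows of all genes held it. AGGTCA, the half-site of many nuclear receptors, was in 2 of 4 against 16.3% of all windows, and TTCNNNGAA, the STAT5-type motif, in 1 of 4 against 8.30%. The 3 matches are printed 5′ to 3′ on the minus strand of chromosome 1, with the matched letters in capitals, because AGGTCA and TTCNNNGAA lie within the same stretch of Fmo2.
Fmo4, chr1:162812609-162812634: tgacaacttcTGACCTtcatccagaa
Fmo2, chr1:162898487-162898512: tttacaatgaAGGTCAtatgaccaga
Fmo2, chr1:162898463-162898491: ccagacaagtTTCTCTGAAggggaggaag
The matches began 75 bases before an annotated start of Fmo4, and 9 bases before and at base 13 after a start of Fmo2. A match of letters is a description of the sequence, and binding was not measured.

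Markers of other liver cells are given for the comparisons in which members were called. Beside the marker counts below, 6.76% of all tested genes were called with ethanol in WT livers and 22.0% in Ahr HKO livers. Between genotypes, 19.9% were called on the control diet and 1.06% on the ethanol diet. With ethanol in Ahr HKO livers, where Fmo1 and Fmo5 rose, 8 of 10 Kupffer cell and leukocyte markers fell, and their summed level was 199 to 244 CPM with ethanol and 307 to 755 CPM without. Among the endothelial markers 3 of 8 fell (207 to 233 against 293 to 317 CPM), among the stellate cell markers 2 of 10 rose and 2 fell (275 to 323 against 244 to 264 CPM), and among the tested cholangiocyte markers 1 of 5 fell (37.1 to 67.2 against 44.5 to 476 CPM). The hepatocyte markers summed to 109730 to 117495 CPM with ethanol and 89823 to 138665 CPM without.

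With ethanol in WT livers, where Fmo1 and Fmo2 rose, 1 of 10 Kupffer cell and leukocyte markers rose, and WT ethanol liver 2, the liver highest in Fmo2, summed to 774 CPM against 299 to 308 CPM in the other WT ethanol livers and 341 to 446 CPM in WT control livers. Among the stellate cell markers 2 of 10 rose (368 to 422 against 257 to 341 CPM). Of the 8 endothelial markers edgeR called 0, with 0 at an unadjusted p under 0.05 and 0 by DESeq2 (205 to 434 against 272 to 340 CPM). The hepatocyte markers summed to 85936 to 116906 CPM with ethanol and 86974 to 96656 CPM without.

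Between genotypes on the control diet, where Fmo4 fell, 3 of 8 hepatocyte markers were higher in Ahr HKO livers, and 1 of 10 Kupffer cell and leukocyte markers was higher and 1 lower. Of the stellate cell markers 2 of 10 were lower (244 to 264 against 257 to 341 CPM), and 1 of 8 endothelial and 1 of 5 cholangiocyte markers were higher. On the ethanol diet, where Fmo5 was called, edgeR called 0 of the 10 Kupffer cell and leukocyte markers, where 8 had an unadjusted p under 0.05 and DESeq2 called 5, and the median log2 difference of the list, Ahr HKO minus WT, was −0.93. Of the hepatocyte markers 1 of 8 was called higher there, with a median of 0.51. Among adipocyte markers Lep, Plin1 and Retn were at 0 reads in every liver, 1 of the 5, Cfd, could be tested, and the summed level of all 5 was 0 in the WT ethanol livers, reached 34.8 CPM in Ahr HKO control liver 1 and was at most 2.26 CPM elsewhere. Cfd was called lower with ethanol in WT livers and higher in Ahr HKO than in WT livers on both diets. DESeq2 called each of these differences too, but limma on quantile-normalized log2(FPKM + 1) called 0 of them. Without quantile normalization, limma on log2(FPKM + 1) called the genotype difference on ethanol alone. The part of other cell types in the Fmo values was not tested.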

How the data were processed

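Poly-A RNA of 12 mouse livers was sequenced from stranded TruSeq mRNA libraries (RNA integrity number above 7). The deposited table holds, per gene and liver, raw counts, FPKM and TPM computed by the authors (TPM was not used here). The submitters' processing notes name FastQC 0.11.7, Trimmomatic 0.38, HISAT2 2.1.0, Bowtie2 2.3.4.1, StringTie 1.3.4d and mm10; the strand setting of the counts is not given in the sources used here.

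Groups followed the labels. Libraries held 46306518 to 74336255 counted reads, so counting error is small for Fmo1 and Fmo5 and larger for Fmo4. No 2 libraries were identical (0 of 66 pairs), and replicates differed beyond sampling noise. Counts were tested with edgeR 4.0.16 (R 4.3.3): TMM (factors 0.925 to 1.16), filterByExpr, glmQLFit and glmQLFTest, each pair of groups on its own 6 libraries and the interaction on all 12. Calls needed an adjusted p under 0.05 (Benjamini-Hochberg over 14038 genes) and, except for the interaction, a fold above 1.5. The code was tested on simulated data. Alternatives were DESeq2 1.42.0, upper-quartile scaling, other filters, all 12 libraries in 1 fit, a replicate block, limma 3.58.1 on FPKM (pseudocount 1, also quantile-normalized, or 0.1), the study's thresholds, and each liver left out.

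Named genes were the 4 members, Fmo rows at 0 reads, the 3 genes most alike to each member (prior count 2), Fmo neighbours and listed genes; some results under this rule are not reported here. Members and lists were chosen with earlier results of these data known. Sequences came from GENCODE M21 transcripts and RefSeq windows. For counts of 0 the limit is 3 reads, and counting intervals cover counting error only.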

Additional observations from a re-analysis of the deposited data

Results flagged for a closer look

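Among the single genes whose tests stand beside those of the flavin monooxygenases, the effect of ethanol differed between Ahr HKO and WT livers by edgeR's interaction test for Ahr, Csad, Rfk and Acp6, where 22.3% of all tested genes were called. Of the gene lists, 10 of 12 male-biased, 2 of 8 tested female-biased, 4 of 10 Kupffer cell and leukocyte, 3 of 8 hepatocyte and 2 of 10 stellate cell genes, and 3 of 10 AhR genes with Ahr among them, were also called. For Ahr the difference of the log2 effects, Ahr HKO minus WT, was −1.23 (SE 0.31, adjusted p = 0.0176), with effects of −0.79 in Ahr HKO and 0.45 in WT livers. For Csad it was 1.71 (SE 0.47, adjusted p = 0.0239), from 1.295 and −0.41. For Rfk it was −0.83 (SE 0.14, adjusted p = 0.0031), from −0.33 and 0.52. For Acp6, beside Fmo5, it was 1.10 (SE 0.15, adjusted p = 0.00085), from 1.00 and −0.10. The terms of Ahr, Rfk and Acp6 were called in 20 of 20 alternative settings and that of Csad in 16 of 20 (adjusted p up to 0.0547). With 3 livers a group, single livers were not tested as outliers.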

How the results depend on the processing

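Of 320 log2 fold changes of the members under alternative settings, 288 kept their direction and side of the threshold, 20 lost and 5 gained the call and 7 turned. The causes were not tested. The calls of Fmo1 with ethanol in both genotypes and of Fmo4 between genotypes on the control diet were kept in all 15 alternatives each.

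With ethanol in WT livers, 2 members were called, and 1 with the replicate block or with limma on quantile-normalized log2(FPKM + 1), Fmo1 in both cases, and 1 to 2 when 1 liver was left out. Between genotypes on the control diet 1 was called, and 1 to 2 without 1 liver, where Fmo2 ran from −0.27 to 0.52, negative without Ahr HKO control liver 3. Between genotypes on the ethanol diet 1 was called, and 0 under upper-quartile scaling, the replicate block, all 3 limma fits and the study's threshold (unadjusted p under 0.05 and fold above 2), and 0 to 0 without 1 liver. Fmo1 there turned to −0.00183 (upper quartile), −0.074, −0.17 and −0.18 (limma, quantile-normalized, with a pseudocount of 1 and of 0.1), and ran from −0.055 to 0.18 without 1 liver (negative without WT ethanol liver 3 or Ahr HKO ethanol liver 1). With ethanol in Ahr HKO livers 2 were called, and 1 to 3 without 1 liver. The interaction gave 0, and 0 to 1 without 1 liver.

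The livers' numbers did not pair them: same-numbered livers' deviations from their group means correlated at −0.0884 to 0.178, over 0.1 in 2 of 12 pairs, so the replicate block is reported here alone. Over all genes, calls with ethanol in WT livers numbered 949, 503 with the block, 1440 with DESeq2 and 366 to 841 without 1 liver. Between genotypes on ethanol they numbered 149, 1044 with DESeq2, 429 with all 12 libraries in 1 fit, 243 with the block, 83, 238 and 392 with limma (quantile-normalized, pseudocounts 1 and 0.1), and 7 to 189 without 1 liver. On the control diet 2788 compared with 1787 and 1751 by limma (quantile-normalized, pseudocount 1), and with ethanol in Ahr HKO livers 3090 with 1795 and 1903. The FPKM scale moved the median of all genes by up to −0.21. Of 840 counts of list genes called, 596 stayed within 1.5 times. Depth limits Fmo4, at 56 reads in its lowest library, most of the 4 members.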
